A study of Mus musculus with 12 samples.

Results

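The costimulatory receptors and TRAF adaptors described here are 10 genes, taken by symbol from the gene count and FPKM tables out of 55536 annotated genes: Tnfrsf4, Tnfrsf9, Tnfrsf18, Tnfrsf1b, Cd27, Cd28, Icos, Traf1, Traf2 and Traf3. All 10 passed the filter on low counts that kept 18817 genes for testing. The rule itself uses only symbols, though the genes were proposed with earlier results of these data known. RNA was sequenced from CD8+ T cells of OT-I mice, whose transgenic T cell receptor recognizes the ovalbumin peptide SIINFEKL. According to the methods, the donors also lacked Rag1 or Rag2, and their cells were moved into unmodified C57BL/6J hosts with an intact immune system of their own. Ag mice (5 libraries) received the peptide with rat IgG as control antibody. Ag+Costim mice (5 libraries) received the peptide with agonist antibodies to CD134 (clone OX-86) and CD137 (clone 3H3), which are the proteins of Tnfrsf4 and Tnfrsf9. In both groups OT-I cells were sorted from spleen and lymph nodes, at 4 days by the labels and at a slightly earlier time by the methods. Naive cells (2 libraries) came from OT-I mice without transfer, peptide or antibody, so that antigen and transfer cannot be told apart in comparisons with Naive. Ages of single animals are not given in the labels.

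TNF family receptors such as CD134 and CD137 have no enzymatic activity of their own. When their ligands cluster them, they recruit TRAF adaptors, which pass the signal to NF-kB and kinase pathways and sustain the survival and expansion of activated T cells. CD28 and ICOS belong to a separate, immunoglobulin-like family, bind B7-type ligands and signal largely through phosphoinositide 3-kinase.

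Counts assigned to annotated genes were 42297544 and 43448688 in the Naive libraries, 23976932 to 45951519 in Ag and 39994606 to 49258758 in Ag+Costim, with the lowest total in Ag 4. Markers of CD8 T cells (Cd3e, Cd3d, Cd8a and Cd8b1) summed to between 2853 and 6366 CPM (counts scaled to a common library size) in every library, and 3 of the 4 were lower with the agonist antibodies than with antigen alone, and those of CD4 and regulatory T cells to between 1.30 and 8.35 CPM. Markers of other cells differed between the groups. The 5 B cell markers were all higher in Ag than in Naive, and 3 of the 5 were lower in Ag+Costim than in Ag. Their sum was 27.2 and 29.7 CPM in Naive, 108 to 155 CPM in Ag and 22.5 to 57.7 CPM in Ag+Costim, and Pax5 was at 0 in both Naive libraries. The 5 erythroid markers were all lower in Ag+Costim than in Ag, with sums of 14.5 to 222 CPM against 625 to 6373 CPM. The 3 proliferation markers were higher in each step, with sums of 19.7 and 21.7 CPM in Naive, 232 to 442 CPM in Ag and 1143 to 1521 CPM in Ag+Costim. The NK cell markers Klrb1c and Ncr1 summed to 6.45 to 14.5 CPM in Ag and 1.22 to 3.30 CPM in Ag+Costim, and Klrb1c was called lower. The 6 myeloid markers summed to 25.5 and 51.6 CPM in Naive, 70.1 to 190.1 CPM in Ag and 113 to 292 CPM in Ag+Costim. Of the 6, 3 were higher in Ag than in Naive and 4 were higher in Ag+Costim than in Ag. The part of these cells in the results below was not tested. In bulk RNA, fewer cells of a type and less RNA per cell cannot be told apart.

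Nearly the whole set was higher after antigen alone. Of the 10 genes, 9 were higher in Ag than in Naive and 0 were lower, with Traf3 the gene not called. The same test called 24.2% of all genes higher and 46.7% in either direction. For the same 9 genes the Ag libraries did not overlap the Naive libraries, which held for 56.4% of all genes. With the agonist antibodies added, the set divided. Relative to Ag, 2 of the 10 were higher in Ag+Costim (Tnfrsf1b and Traf3), beside 26.6% of all genes, and 5 were lower (Tnfrsf18, Cd27, Cd28, Icos and Traf1), beside 26.5% of all genes. These 7 calls in either direction stand beside 53.1% of all genes. Libraries did not overlap for 5 of the 10 (Tnfrsf1b, Tnfrsf18, Cd27, Icos and Traf1), beside 39.8% of all genes. Neither antibody target, Tnfrsf4 or Tnfrsf9, was called in that comparison, nor was Traf2. A gene was called at an adjusted p below 0.05 in edgeR's quasi-likelihood test with Benjamini-Hochberg adjustment over all 18817 genes. The labels do not say that each library is a separate animal, while the methods speak of biological replicates, so p-values measure the spread between these libraries.

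**Figure D1:**
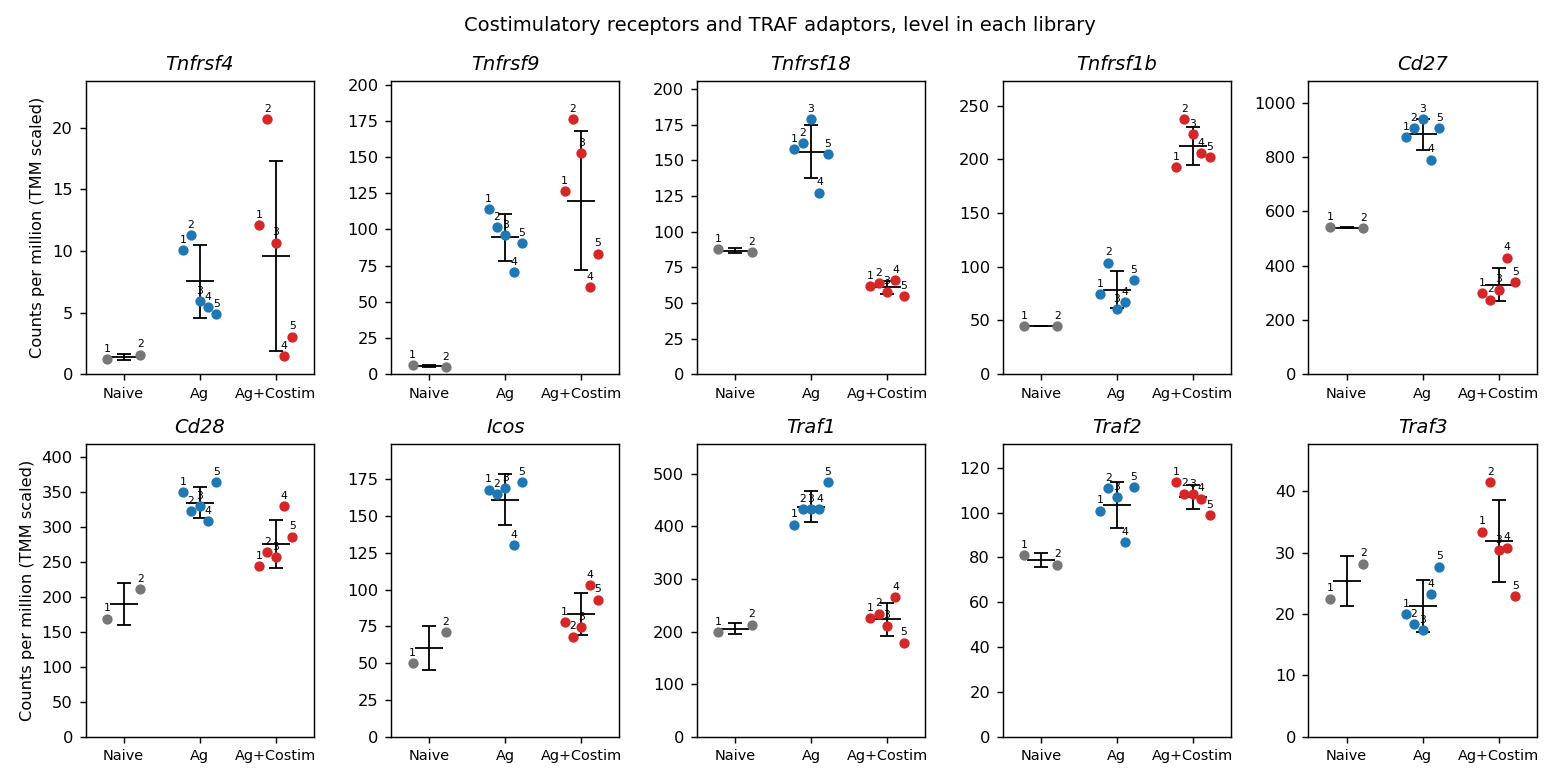
Level of each of the 10 genes in CPM (vertical axes, linear, from 0) in 2 Naive (grey), 5 Ag (blue) and 5 Ag+Costim (red) libraries. Points are libraries with their replicate number, and black bars are mean and SD. Tnfrsf18, Cd27, Icos and Traf1 peak in Ag, Tnfrsf1b is highest in Ag+Costim, and Tnfrsf4 and Tnfrsf9 spread widely in Ag+Costim, where libraries 4 and 5 are lowest.

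Tnfrsf4 encodes CD134 (OX40), the receptor of the ligand OX40L. Its level was 1.23 and 1.57 CPM in Naive. In Ag it was 10.1, 11.3, 5.94, 5.42 and 4.88 CPM in libraries 1 to 5, all above both Naive libraries. In Ag+Costim it was 12.1, 20.7, 10.7, 1.47 and 3.04 CPM, so that libraries 4 and 5 lay below every Ag library and library 4 lay between the Naive values. Tnfrsf4 was higher in Ag than in Naive by 2.42 on the log2 scale (SE 0.84, edgeR adjusted p = 0.0296). Ag+Costim and Ag did not differ beyond this spread (log2 fold change 0.35, 95% interval -0.81 to 1.51, edgeR adjusted p = 0.616). That small value depended on library 2 of Ag+Costim, without which it was -0.14. The call against Naive was lost without Naive 1 (adjusted p = 0.176), without Naive 2 (adjusted p = 0.140) or, narrowly, without Ag 2 (adjusted p = 0.0501). Against Naive, Ag+Costim was higher by 2.77 (SE 0.85, edgeR adjusted p = 0.0148), with overlapping libraries, and this call was lost without Naive 1 (adjusted p = 0.116) or Naive 2 (adjusted p = 0.0892).

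Tnfrsf9 encodes CD137 (4-1BB), a receptor that appears on CD8 T cells after activation. Its level was 6.05 and 4.997 CPM in Naive. The Ag libraries had 114, 102, 96.2, 70.2 and 90.8 CPM. The Ag+Costim libraries had 126, 176, 153, 59.9 and 83.2 CPM, with libraries 1 to 3 above every Ag library and library 4 below every one. With 4.10 on the log2 scale (SE 0.42, 17.1-fold, edgeR adjusted p = 4.8e-06), Tnfrsf9 had the largest difference between Ag and Naive among the 10 genes. The difference between Ag+Costim and Ag was 0.34 (95% interval -0.18 to 0.86, edgeR adjusted p = 0.259). Without Ag+Costim 4 it was 0.53 and was called (edgeR adjusted p = 0.0342).

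Both antibody targets therefore varied among the Ag+Costim libraries more than most genes did. The SD of their log2 CPM in that group was 1.56 for Tnfrsf4 and 0.64 for Tnfrsf9, against a median of 0.18 over 11742 genes. These SDs exceeded those of 99.7% and 96.9% of the genes. In Ag the SDs were 0.55 and 0.26, against a median of 0.23. The other 8 members had SDs between 0.07 and 0.31 in Ag+Costim. The log2 ratio of Tnfrsf4 to Tnfrsf9 was -3.70 ± 0.41 in Ag and -4.06 ± 0.92 in Ag+Costim (mean and SD, n = 5 each, CPM plus 0.1), a difference within the spread (exact permutation p = 0.452, two-sided). Libraries 4 and 5 were not low throughout. They had the highest Cd27, Cd28 and Icos values of the group, while library 4 also had the highest Traf1 and library 5 the lowest. Libraries 4 and 5 also had the highest sums of myeloid markers of the group. These were 292 and 228 CPM, against 113 to 178 CPM in libraries 1 to 3. The part of myeloid cells in these values was not tested.

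**Figure D2:**
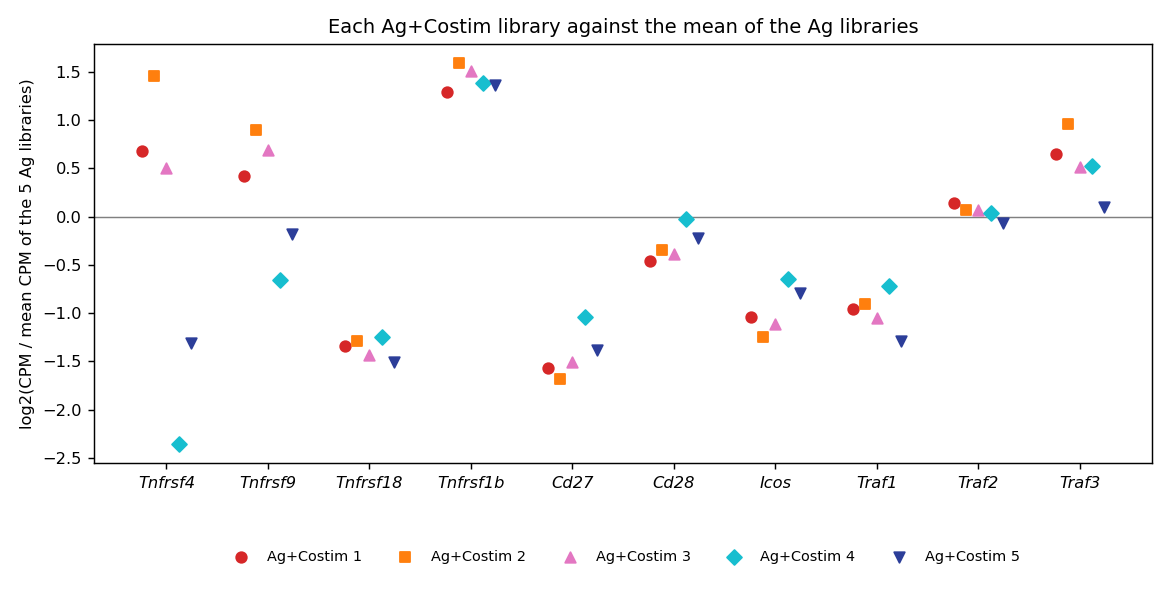
Level of each gene in each of the 5 Ag+Costim libraries relative to the mean of the 5 Ag libraries (vertical axis, log2 ratio of CPM, 0 at the Ag mean). The 5 libraries sit close together for Tnfrsf18, Tnfrsf1b and Traf2, whereas for Tnfrsf4 and Tnfrsf9 libraries 1 to 3 lie above the Ag mean and libraries 4 and 5 below it.

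The promoters of these receptors are shown because the deposited splicing table and the transcript counts both assign Tnfrsf9 more than 1 start. Sequences are the 250 bases before each RefSeq start (GRCm38.p6, the mm10 build), 5′ to 3′ on the strand of the gene. Capitals mark matches to an NF-kB type motif (GGG, any 2 bases, TTTCC), searched on both strands, or to TGANTCA, an AP-1 type motif that reads as the same pattern on both strands. Neither motif overlaps the other here. RefSeq rows were matched for 8 of the 10 genes, with 9 promoters in all, and Cd28 and Icos have none. The first Tnfrsf9 start, at chr4:150919905-150920154 (+), coincides with that of transcript Tnfrsf9-204. The second, at chr4:150927749-150927998 (+), coincides with that of Tnfrsf9-205, which lies within the gene as annotated by GENCODE. Tnfrsf4 is at chr4:156013445-156013694 (+) and Traf3 at chr12:111166120-111166369 (+).
Tnfrsf9, first start: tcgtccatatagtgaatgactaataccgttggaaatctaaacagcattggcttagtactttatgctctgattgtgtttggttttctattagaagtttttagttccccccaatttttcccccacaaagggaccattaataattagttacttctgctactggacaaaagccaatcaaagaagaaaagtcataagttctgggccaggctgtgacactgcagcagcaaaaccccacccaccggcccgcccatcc
Tnfrsf9, second start: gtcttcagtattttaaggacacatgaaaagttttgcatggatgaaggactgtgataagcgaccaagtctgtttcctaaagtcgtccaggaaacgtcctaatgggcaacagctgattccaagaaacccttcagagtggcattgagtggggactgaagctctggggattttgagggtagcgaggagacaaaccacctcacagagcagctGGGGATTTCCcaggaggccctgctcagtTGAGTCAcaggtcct
Tnfrsf4: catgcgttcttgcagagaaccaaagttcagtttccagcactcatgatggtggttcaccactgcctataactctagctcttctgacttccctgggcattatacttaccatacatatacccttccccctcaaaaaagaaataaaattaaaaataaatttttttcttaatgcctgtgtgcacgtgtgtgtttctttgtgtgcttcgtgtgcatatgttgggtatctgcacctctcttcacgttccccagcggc
Traf3: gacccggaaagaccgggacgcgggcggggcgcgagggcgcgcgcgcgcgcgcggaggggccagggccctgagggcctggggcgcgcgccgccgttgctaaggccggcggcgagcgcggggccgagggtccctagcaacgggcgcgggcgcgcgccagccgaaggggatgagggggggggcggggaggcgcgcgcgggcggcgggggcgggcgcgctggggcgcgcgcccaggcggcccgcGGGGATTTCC

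The second Tnfrsf9 promoter held the NF-kB type letters GGGGATTTCC 43 to 34 bases before the start and TGAGTCA 15 to 9 bases before it. Traf3 held GGGGATTTCC in the last 10 bases before its RefSeq start. That start coincides with the start of Traf3-203, with a mean of 1.5% of the Traf3 counts in Ag and 4.5% in Ag+Costim. The leading transcript, Traf3-201, starts further downstream, at chr12:111166463. The first Tnfrsf9 promoter and that of Tnfrsf4 held neither motif in these windows. Nor did those of Tnfrsf18, Tnfrsf1b, Cd27, Traf1 and Traf2, whose sequences are not shown. Of the 9 promoters of the members, 2 held the NF-kB type motif and 1 held TGANTCA. Among all 32851 promoters of this length, 464 (1.41%) held the NF-kB type motif and 2217 (6.75%) held TGANTCA. These matches describe letters only, and no binding was measured.

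In the transcript counts, Tnfrsf9-205 was the leading transcript, with 91.8% and 65.5% of the Tnfrsf9 counts in Naive. Its share was 62.8% ± 15.3 in Ag and 48.4% ± 18.8 in Ag+Costim (SD, n = 5 each), which did not differ beyond the spread (exact permutation p = 0.198, two-sided). The 2 transcripts that start at or near the first promoter, Tnfrsf9-204 and Tnfrsf9-201, had no counts in either Naive library, in Ag 4 and 5 or in Ag+Costim 1, and between 369 and 2361 counts each in the other 7 libraries. Ag 5 had 2910 counts of Tnfrsf9-205 beside these zeros, so the split between overlapping transcripts was unstable. The authors' pooled Psi values, the fraction of transcripts of a group that include a node, gave the first exon at chr4:150927999-150928085 as 0.892 in Ag and 0.792 in Ag+Costim. For the alternative first exon at chr4:150925306-150925425, they gave 0.645 and 0.771. These are 1 value per group, with no error and no test here.

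The counts assigned to the transcripts of Tnfrsf4 were split differently in the 3 groups. Tnfrsf4-201, the protein-coding transcript (chr4:156013843-156016612), had 0 counts in both Naive libraries, where the gene's counts fell on the processed transcripts Tnfrsf4-203 (58 and 62) and Tnfrsf4-202 (2 and 13). In Ag it had 400, 442, 232, 119 and 182 counts, and in Ag+Costim 497, 894, 478, 61 and 115 counts. Counts as assigned were set against a limit of 3 counts per Naive library. On that basis the mean of Tnfrsf4-201 was at least 106-fold higher in Ag and at least 148-fold higher in Ag+Costim. The level of the whole gene was 5.36-fold and 6.82-fold higher. That limit covers counting error only. Tnfrsf4-203 (chr4:156013856-156016599) spans nearly the same bases as Tnfrsf4-201. The zeros and these folds therefore depend on how counts were split between overlapping transcripts. Within the gene, the share of Tnfrsf4-201 was 87.0%, 87.5%, 91.0%, 86.9% and 89.7% in Ag. In Ag+Costim it was 97.5%, 95.8%, 96.0%, 96.8% and 98.3%, all above the Ag range (exact permutation p = 0.00794, two-sided, the smallest that 5 against 5 libraries can give). The complement was Tnfrsf4-203, which had 6.7% to 12.4% of the counts in Ag and 0% to 2.7% in Ag+Costim. The authors' pooled Psi values of the Tnfrsf4 nodes differed by 0.0093 or less between Ag and Ag+Costim, with no test here.

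Tnfrsf18 encodes GITR, whose gene lies 9551 bases downstream of Tnfrsf4 on the same strand of chromosome 4. Its level was 87.8 and 85.4 CPM in Naive and 158, 162, 179, 127 and 154 CPM in Ag. In Ag+Costim it was 61.7, 63.8, 57.9, 66.0 and 54.9 CPM. The 3 groups did not overlap, and Ag+Costim was below Naive as well as below Ag. Tnfrsf18 rose by 0.85 on the log2 scale in Ag against Naive (SE 0.13, edgeR adjusted p = 1.1e-04) and was 2.57-fold lower in Ag+Costim than in Ag (log2 fold change -1.36, SE 0.09, edgeR adjusted p = 9.3e-08). It was also below Naive (log2 fold change -0.51, SE 0.12, edgeR adjusted p = 0.0027), a call lost with a transcript length offset and replicate block together (-0.35, adjusted p = 0.0572). The antisense gene Gm16008 shares 414 exonic bases with Tnfrsf18 but held only 26 to 111 counts per library. Despite their adjacency, Tnfrsf4 and Tnfrsf18 differed in direction in 3 of the 5 Ag+Costim libraries, in which Tnfrsf4 was above its Ag mean. Their log2 ratio was -4.43 ± 0.52 in Ag and -3.18 ± 1.54 in Ag+Costim (SD, n = 5 each, exact permutation p = 0.143, two-sided). Without Ag+Costim 4 that difference was 1.80 with an exact permutation p adjusted over the 4 ratios of 0.0317.

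Tnfrsf1b encodes TNFR2, the TNF receptor found mainly on immune cells. It was the member that rose in both steps. Its level was 45.0 CPM in both Naive libraries, 74.6, 104, 60.5, 67.3 and 87.2 CPM in Ag, and 193, 237, 224, 206 and 202 CPM in Ag+Costim. No library of one group reached the range of another. The log2 fold change was 0.81 in Ag against Naive (SE 0.18, edgeR adjusted p = 0.0022), 1.43 in Ag+Costim against Ag (SE 0.13, 2.70-fold, edgeR adjusted p = 9.5e-07) and 2.24 in Ag+Costim against Naive (SE 0.19, 4.72-fold, edgeR adjusted p = 7.6e-07). Of all genes, 6.23% were called higher in both steps, and Tnfrsf1b was the only one of the 10 members among them. Its transcript Tnfrsf1b-201 held over 99.9% of the counts in every group.

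Cd27, the receptor of CD70 and a marker of naive and early memory T cells, was the most abundant member. It had 541 and 538 CPM in Naive and 872, 908, 939, 790.2 and 908 CPM in Ag. The Ag+Costim libraries had 298, 274, 311, 429 and 338 CPM, below both other groups. The rise in Ag was 0.71 on the log2 scale (SE 0.15, edgeR adjusted p = 0.0017). The difference between Ag+Costim and Ag was -1.42 (SE 0.11, 2.68-fold lower, edgeR adjusted p = 2.8e-07), and that between Ag+Costim and Naive was -0.71 (SE 0.14, edgeR adjusted p = 8.9e-04). Cd27 kept these calls under each of the 23 alternative analyses of every comparison.

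The composition of Cd27 RNA also differed. The retained-intron transcript Cd27-206 (chr6:125236108-125237003) held 17.7% and 19.1% of the gene's counts in Naive. It held 13.3%, 11.5%, 11.3%, 21.0% and 11.3% in Ag, with Ag 4 highest, and 5.5%, 5.0%, 5.1%, 5.4% and 5.1% in Ag+Costim. The leading coding transcript, Cd27-201, had 80.0% ± 3.7 in Ag and 87.8% ± 1.2 in Ag+Costim (SD, n = 5 each), without overlap (exact permutation p = 0.00794, two-sided).

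Cd28, the receptor of CD80 and CD86, had 169 and 210.4 CPM in Naive and 349, 322, 329, 308 and 364 CPM in Ag. The Ag+Costim libraries had 243, 263, 256, 329.7 and 286 CPM, of which library 4 lay inside the Ag range. Cd28 was higher in Ag than in Naive by 0.82 on the log2 scale (SE 0.13, edgeR adjusted p = 2.5e-04). It was lower in Ag+Costim than in Ag by a smaller amount (log2 fold change -0.28, SE 0.10, edgeR adjusted p = 0.0277). This call was lost when Ag 1, Ag 5, Ag+Costim 1, Ag+Costim 2 or Ag+Costim 3 was left out (adjusted p = 0.0588, 0.0629, 0.0723, 0.0599 and 0.0694). Ag+Costim was above Naive (0.54, SE 0.13, edgeR adjusted p = 0.0039), a call lost without Naive 1 (0.38, adjusted p = 0.0975) and in limma fits of log2(FPKM + 1) and log2(FPKM + 0.1) (0.18 in each, adjusted p = 0.226 to 0.288).

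As in Cd27, the retained-intron transcript Cd28-203 took a smaller share in Ag+Costim, with 4.5% to 7.3% against 11.03% to 17.05% in Ag and 14.4% and 13.7% in Naive. The other counted transcript, the coding Cd28-201, accordingly had 87.4% ± 2.5 in Ag and 93.9% ± 1.0 in Ag+Costim (SD, n = 5 each, exact permutation p = 0.00794, two-sided). The leading transcripts of Tnfrsf4, Cd27 and Cd28 thus had higher shares in each Ag+Costim library than in any Ag library. This held for 3 of the 10 members and for 6.95% of the 10554 tested genes with at least 2 counted transcripts (9.76% in either direction). With adjustment over those 10554 genes the p of each was 0.0813, and 0 of 10554 genes passed, while 3 members had the smallest exact p and Tnfrsf1b an unadjusted p of 0.0476 at a difference of -0.03 percentage points.

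**Figure D3:**
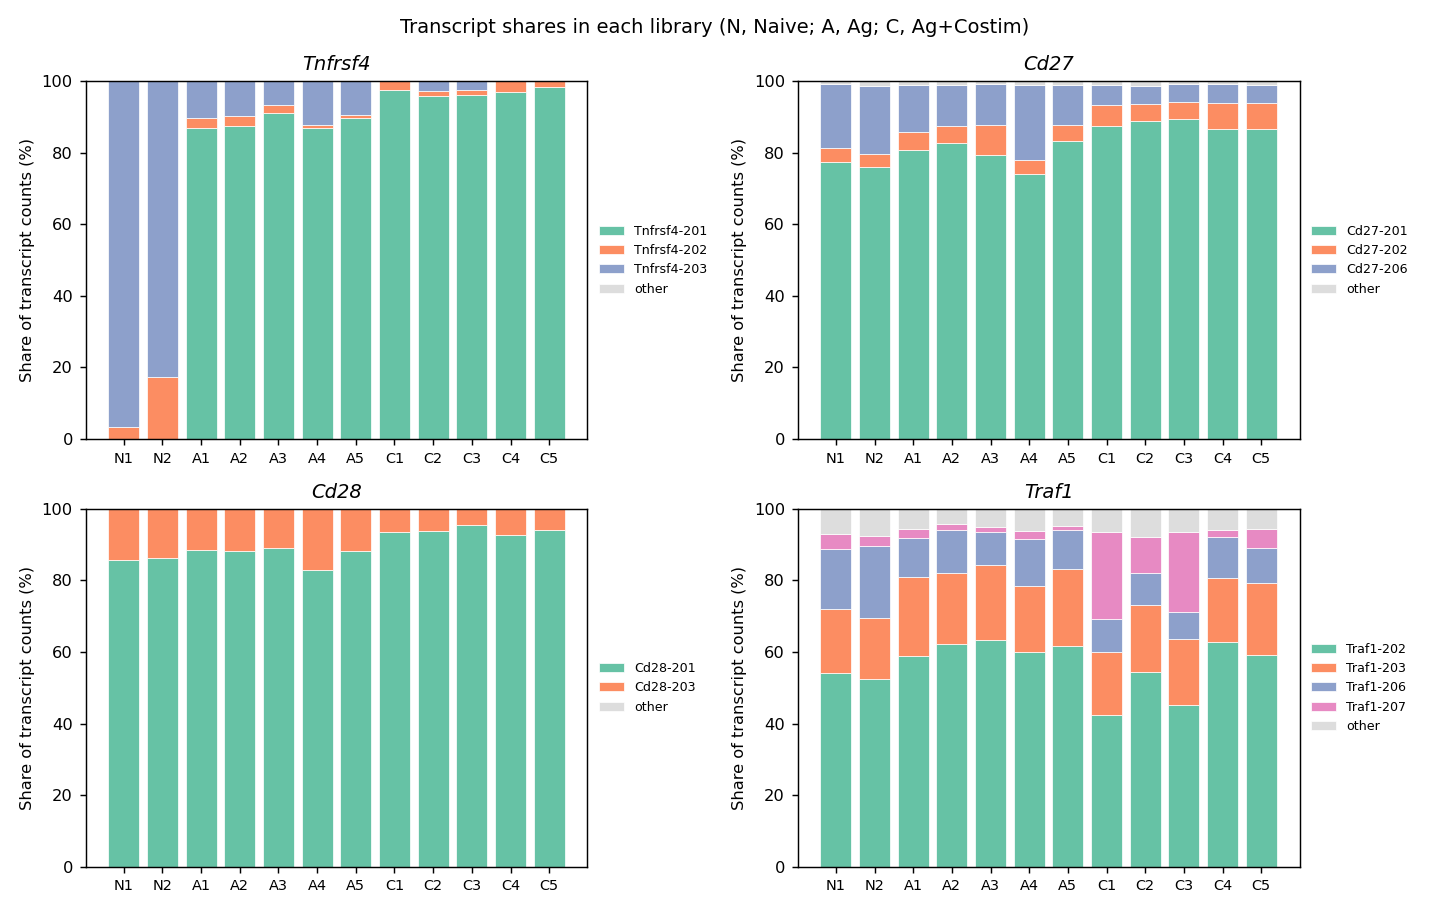
Share of each gene's transcript counts (vertical axes, %, 0 to 100) held by named transcripts of Tnfrsf4, Cd27, Cd28 and Traf1 in 2 Naive (N), 5 Ag (A) and 5 Ag+Costim (C) libraries. Tnfrsf4-201 has no counts in Naive, Cd27-206 and Cd28-203 take smaller shares in Ag+Costim than in Ag, and Traf1-207 is largest in Ag+Costim 1 to 3.

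Icos, the inducible costimulator of the CD28 family, lies 204567 bases from Cd28 on chromosome 1. It had 50.1 and 71.2 CPM in Naive, 168, 165, 169, 130.4 and 173 CPM in Ag and 78.2, 68.1, 74.6, 103 and 93.2 CPM in Ag+Costim. Ag did not overlap either other group, and Ag 4 was its lowest library. Icos was 2.66-fold higher in Ag than in Naive (log2 fold change 1.41, SE 0.19, edgeR adjusted p = 4.9e-05) and 1.93-fold lower in Ag+Costim than in Ag (log2 fold change -0.95, SE 0.13, edgeR adjusted p = 4.4e-05). Its call above Naive in Ag+Costim was marginal (0.46, SE 0.18, edgeR adjusted p = 0.0457). It was lost without Naive 1 (log2 fold change 0.22, adjusted p = 0.448) and when Ag 1, 2, 3 or 5 or Ag+Costim 1, 4 or 5 was left out (adjusted p = 0.0518 to 0.0833). It was also lost with RLE scaling (adjusted p = 0.0504), upper-quartile scaling (0.31, adjusted p = 0.163), no filter (adjusted p = 0.0582), the 2 groups alone (adjusted p = 0.0775) and the limma fits of FPKM (0.18 to 0.19, adjusted p = 0.345 to 0.459).

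Cd28 and Icos therefore moved by different amounts. The log2 ratio of Cd28 to Icos was 1.06 ± 0.11 in Ag, with a range of 0.96 to 1.24, and 1.73 ± 0.14 in Ag+Costim, with a range of 1.62 to 1.95 (SD, n = 5 each). The groups did not overlap (exact permutation p = 0.00794, two-sided, 0.0159 after Benjamini-Hochberg adjustment over 4 ratios). In Naive the ratio was 1.66 ± 0.14 (n = 2).

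Traf1 encodes an adaptor that joins the CD137 complex and, unlike other TRAFs, has no RING domain. It had 198 and 213 CPM in Naive, 403, 433, 433, 432 and 484 CPM in Ag and 226, 234, 212, 266 and 179 CPM in Ag+Costim. Ag stood above both other groups without overlap, whereas Naive and Ag+Costim overlapped. Traf1 was 2.12-fold higher in Ag than in Naive (log2 fold change 1.09, SE 0.14, edgeR adjusted p = 3.1e-05) and 1.96-fold lower in Ag+Costim than in Ag (log2 fold change -0.97, SE 0.10, edgeR adjusted p = 2.6e-06). The difference between Ag+Costim and Naive was 0.12 (95% interval -0.17 to 0.40, edgeR adjusted p = 0.472).

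One Traf1 transcript went the other way. Traf1-207 is a coding transcript that starts further into the gene and runs to a more distant 3′ end (chr2:34941750-34958163, minus strand). It had 393 and 288 counts in Naive and 445, 314, 272, 236 and 226 in Ag. In Ag+Costim it had 2316, 1072 and 2189 counts in libraries 1 to 3 but 206 and 373 in libraries 4 and 5. Its share of the gene was therefore 24.4%, 10.2% and 22.2% in the first 3 libraries and 1.8% and 5.4% in the others, against 1.1% to 2.4% in Ag. These are the same libraries that were high and low for Tnfrsf4 and Tnfrsf9. Traf1-207 was singled out after its values were seen and is given without a test. The leading transcript, Traf1-202, had 61.2% ± 1.8 in Ag and 52.8% ± 8.8 in Ag+Costim (SD, n = 5 each, exact permutation p = 0.0794, two-sided). In the pooled Psi values, the transcript-end node at chr2:34943258-34944091 went from 0.256 to 0.846 and that at chr2:34943256-34943257 from 0.739 to 0.148. The second node is 2 bases wide and abuts the first. The more distant 3′ end of Traf1-207 has its own node (chr2:34941750-34943255), which was 0.0059 in Ag and 0.0062 in Ag+Costim. The node at the start of Traf1-207 (chr2:34958137-34958163) was 0.012 in Ag and 0.016 in Ag+Costim. Neither showed a rise like that of the Traf1-207 counts. Of the 93 Psi nodes of the 10 genes, 10 differed by more than 0.1 between Ag and Ag+Costim (10.8%, against 7.39% of all 115403 nodes), and all 10 lay in Traf1, Traf3 and Tnfrsf9.

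Traf2, the adaptor that recruits the cIAP ubiquitin ligases to CD134 and CD137, had the smallest difference of the 10 genes between Ag+Costim and Ag. It had 81.1 and 76.7 CPM in Naive, 101, 111, 107, 86.8 and 111 CPM in Ag, and 114, 108, 108, 106 and 98.7 CPM in Ag+Costim. Both treated groups lay above Naive and overlapped each other. The log2 fold change was 0.39 in Ag against Naive (SE 0.11, edgeR adjusted p = 0.00998) and 0.44 in Ag+Costim against Naive (SE 0.11, edgeR adjusted p = 0.00415). The first call was lost without Naive 1 (adjusted p = 0.0507) or Naive 2 (adjusted p = 0.113), and the second without Naive 2 (adjusted p = 0.0656). Both were also lost in the limma fits of FPKM, at 0.17 to 0.18 (adjusted p = 0.203 to 0.214) and 0.22 to 0.23 (adjusted p = 0.0942 to 0.0962). Ag+Costim and Ag differed by 0.05 (95% interval -0.12 to 0.22, edgeR adjusted p = 0.629), a value that took the opposite sign without Ag 4 (-0.0068). The log2 ratio of Traf1 to Traf2 fell from 2.08 ± 0.14 in Ag to 1.05 ± 0.18 in Ag+Costim (SD, n = 5 each), with ranges of 1.97 to 2.31 and 0.86 to 1.32 (exact permutation p = 0.00794, two-sided, 0.0159 adjusted over 4 ratios). In Naive it was 1.38 ± 0.13 (n = 2).

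Traf3, which restrains the non-canonical NF-kB pathway by directing the kinase NIK (Map3k14) to degradation, was the adaptor with the lowest level. It had 22.5 and 28.2 CPM in Naive, 20.0, 18.4, 17.4, 23.3 and 27.8 CPM in Ag and 33.5, 41.5, 30.5, 30.8 and 22.9 CPM in Ag+Costim. Library 5 was the highest in Ag and the lowest in Ag+Costim, and the groups overlapped through it. Traf3 was higher in Ag+Costim than in Ag (log2 fold change 0.58, SE 0.17, edgeR adjusted p = 0.0096). In Ag against Naive it was not called (-0.25, 95% interval -0.72 to 0.22, edgeR adjusted p = 0.366), nor in Ag+Costim against Naive (0.33, 95% interval -0.15 to 0.80, edgeR adjusted p = 0.229). The rise over Ag was not called with a correction for transcript length (0.24, adjusted p = 0.196) or with upper-quartile scaling (0.38, adjusted p = 0.0639).

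**Figure D4:**
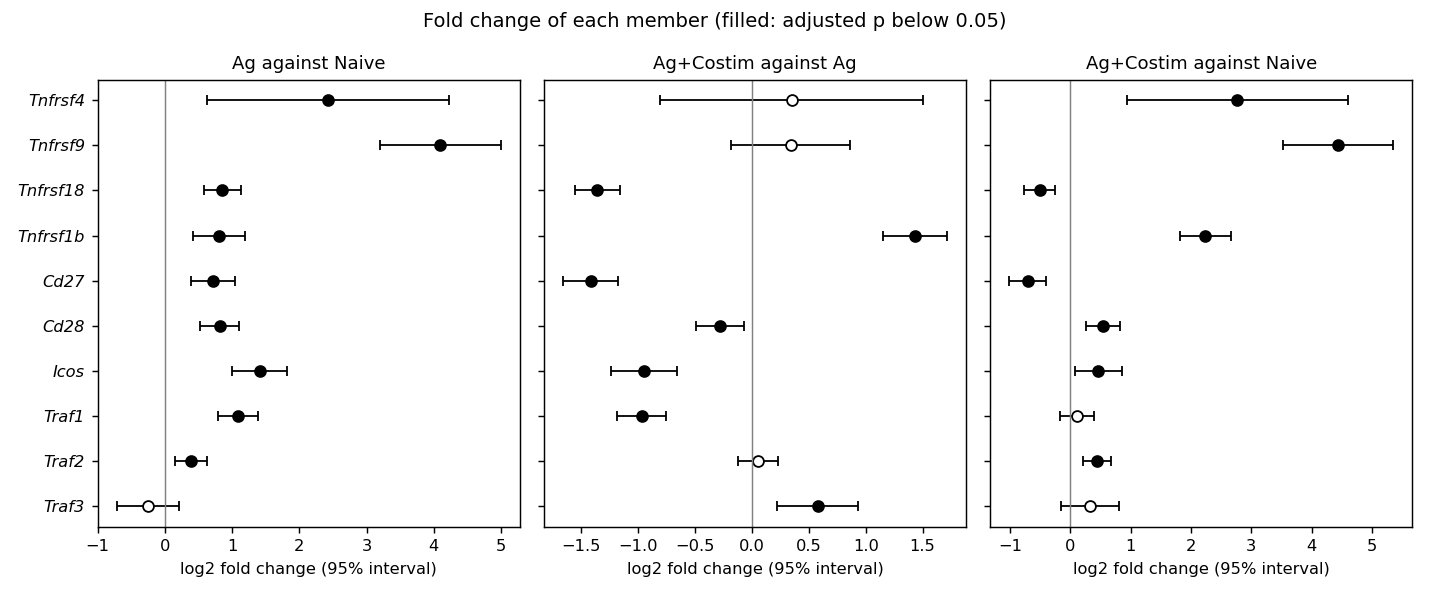
Log2 fold change of each gene in the 3 comparisons (horizontal axes, with a 95% interval from the edgeR fit, 0 marked by a grey line). Filled points have an adjusted p below 0.05. In Ag against Naive 9 of the 10 points are filled and lie above 0. In Ag+Costim against Ag, Tnfrsf18, Cd27, Icos and Traf1 lie near or beyond -1, Tnfrsf1b lies at 1.43, and the intervals of Tnfrsf4 and Tnfrsf9 cross 0.

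Over both steps, 5 of the 10 genes (Tnfrsf18, Cd27, Cd28, Icos and Traf1) were higher in Ag than in Naive and lower again in Ag+Costim than in Ag. The same pair of calls was made for 1741 of 18817 genes (9.25%). Because both comparisons use the Ag libraries, the pair of directions is not 2 independent results. Compared directly with Naive, 6 members were higher in Ag+Costim (26.9% of all genes) and 2 were lower (25.4% of all genes), namely Tnfrsf18 and Cd27. These 8 calls stand beside 52.3% of all genes, and libraries did not overlap for 6 of the 10, beside 66% of all genes. The median log2 fold change of the 10 genes was 0.83 in Ag against Naive and -0.11 in Ag+Costim against Ag, beside 0.02 and -0.05 over all tested genes.

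Per transcript length, the order of the members was read from the authors' FPKM values. In Ag, Cd27 led with 675 ± 10.3 FPKM (SD, n = 5), followed by Traf1 (211 ± 13.8), Tnfrsf18 (135 ± 11.3) and Cd28 (89.4 ± 5.3), each clear of the next. Tnfrsf9 (51.2 ± 6.2), Icos (51.0 ± 4.1) and Traf2 (40.0 ± 4.3) followed, and neighbours in that stretch overlapped. Tnfrsf1b (20.3 ± 4.6) was clear of Tnfrsf4 (7.29 ± 3.00), which overlapped Traf3 (4.16 ± 0.80). In Ag+Costim, Cd27 (228 ± 42.7) and Traf1 (99.4 ± 14.5) still led. Cd28 (65.9 ± 8.7), Tnfrsf9 (61.8 ± 23.8), Tnfrsf1b (53.2 ± 4.1), Tnfrsf18 (50.1 ± 3.9) and Traf2 (41.4 ± 2.5) came next, each overlapping its neighbour. In Naive, Tnfrsf9 (3.48 ± 0.03, n = 2) and Tnfrsf4 (1.60 ± 0.46, n = 2) were the 2 lowest of the 10.

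The genes whose profile over the 12 libraries was most like that of Tnfrsf4, by the root-mean-square difference of centred log2 CPM among 9253 candidates, were Odc1 (0.66), Alyref, Mpp6, Ube2m and Stk39 (0.72 to 0.73). Odc1, the first enzyme of polyamine synthesis, had 33.1 and 31.7 CPM in Naive and 78.1 to 104 CPM in Ag. In Ag+Costim it had 244, 276, 179, 64.3 and 120.2 CPM. For Tnfrsf9, the closest of 9252 candidates were Litaf (0.31), Bcl2a1d (0.34), Bcl2a1a (0.40), Nmral1 (0.40) and Anxa2 (0.47). Bcl2a1d and Bcl2a1a belong to a family of near-identical anti-apoptotic genes whose reads cannot be assigned with certainty. Litaf had 3.38 and 2.62 CPM in Naive, 47.5 to 72.6 CPM in Ag and 56.9 to 80.8 CPM in Ag+Costim. All these values share the same libraries, and likeness of profile is a description.

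Of the 9 ligands of these receptors that were listed, 5 were higher and 2 lower in Ag than in Naive, and with Ag+Costim set against Ag, 4 were higher and 3 lower. The same test called 24.2% of all genes higher and 22.5% lower in Ag against Naive. In Ag+Costim against Ag it called 26.6% of all genes higher and 26.5% lower. These shares stand beside the counts of this list and of the lists below. Cd70, the ligand of CD27, had 0 counts in every Naive and Ag library and 1.94, 2.62, 0.94, 0.07 and 0.16 CPM in Ag+Costim, again with libraries 4 and 5 lowest. Its mean in Ag+Costim was at least 14.6-fold higher than the 3-count limit of the Ag libraries, a mean set by libraries 1 to 3. Cd70 and Tnfsf4 were singled out after their values were seen. Tnfsf4, the ligand of CD134, had 0 and 0.08 CPM in Naive, 3.44 to 9.48 CPM in Ag and 3.65, 5.10, 2.57, 0.65 and 1.19 CPM in Ag+Costim. Tnfsf9, the ligand of CD137, had 1.09 and 1.55 CPM in Naive, 7.74 to 11.2 CPM in Ag and 7.84 to 18.4 CPM in Ag+Costim, and was called higher in both steps. Cd86, a ligand of CD28 that B cells and myeloid cells also express, went from 24.2 to 44.5 CPM in Ag to 5.30 to 15.1 CPM in Ag+Costim, and Lta from 22.1 to 34.04 CPM to 6.62 to 14.6 CPM. Icosl, the ligand of ICOS, moved in the opposite direction, from 1.65 to 3.05 CPM to 3.53 to 8.14 CPM. The median over the ligands was 1.17 in Ag against Naive and -0.07 in Ag+Costim against Ag on the log2 scale, with genes at 0 in 1 group set at their limit and Cd70 or Tnfsf18 left out where both groups had no counts.

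Among 18 other TNF receptors with enough counts, of 23 listed, 6 were higher and 6 lower in Ag than in Naive, and with Ag+Costim set against Ag, 2 were higher and 4 lower. Their median log2 fold changes were -0.30 and -0.18. Tnfrsf25 (DR3) was 6.45-fold lower in Ag than in Naive and Tnfrsf26 3.13-fold lower. Tnfrsf13c (BAFF receptor) was 9.78-fold higher in Ag, and Tnfrsf13b (TACI) was 4.84-fold lower in Ag+Costim than in Ag. Both are also B cell genes, and the B cell sums given above were higher in Ag than in Naive and lower in Ag+Costim. Tnfrsf13c did not follow these sums in Ag+Costim, where it had 16.3 to 22.8 CPM against 18.2 to 26.9 CPM in Ag and was 8.50-fold above Naive. The cells had been sorted for CD8+ T cells, and the part of B cells in these values was not tested. Tnfrsf21 (DR6) was 3.00-fold and Tnfrsf22 1.57-fold higher in Ag+Costim than in Ag.

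The 3 other receptors of the CD28 family, which inhibit T cells, were all higher in Ag than in Naive. Ctla4 had 0.78 and 1.24 CPM in Naive, 105 to 166 CPM in Ag and 30.5 to 66.0 CPM in Ag+Costim. It was 3.36-fold lower in Ag+Costim than in Ag, and Btla was 1.88-fold lower. Pdcd1 (PD-1) was 52.5-fold higher in Ag than in Naive and was not called between Ag+Costim and Ag (log2 fold change 0.25). The median of the 3 was 5.71 in the first comparison and -0.91 in the second.

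Of 9 other TRAFs and TRAF-binding proteins, 2 were higher and 2 lower in Ag than in Naive, and with Ag+Costim set against Ag, 4 were higher and 2 lower (median 0.20 and 0.38). Traf5, an adaptor of CD134 and CD27, was higher and then lower, as Traf1 was. It had 58.0 and 66.4 CPM in Naive, 91.2 to 149 CPM in Ag and 54.8 to 68.2 CPM in Ag+Costim. Traf4 and Traf6 did the reverse, with Traf6 at 46.0 and 37.0 CPM in Naive, 18.4 to 20.8 CPM in Ag and 30.7 to 45.0 CPM in Ag+Costim. Trafd1 was 2.56-fold higher and Traf3ip3 2.19-fold lower in Ag+Costim than in Ag.

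Of 16 signalling partners downstream of the TRAFs, 2 were higher and 6 lower in Ag than in Naive, and with Ag+Costim set against Ag, 7 were higher and 5 lower (median -0.23 and 0.19). Map3k14, the NIK kinase that TRAF3 controls, had 82.4 and 94.3 CPM in Naive, 12.9 to 14.7 CPM in Ag and 20.9 to 29.4 CPM in Ag+Costim. It was 6.38-fold lower in Ag than in Naive and 1.81-fold higher in Ag+Costim than in Ag. Tnfaip3 (A20), an inhibitor of NF-kB signalling, was 2.56-fold lower and then 1.76-fold higher in the same comparisons.

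Of 9 NF-kB subunits and inhibitors, 2 were higher and 0 lower in Ag than in Naive, and with Ag+Costim set against Ag, 1 was higher and 3 lower (median 0.20 and -0.11). Nfkbia, the inhibitor IkBa, was 2.28-fold lower in Ag+Costim than in Ag. Nfkb2, the precursor of the non-canonical subunit p52, was the gene that was higher and was singled out after its values were seen. It had 48.1 to 59.0 CPM in Ag and 131, 207, 157, 82.9 and 58.2 CPM in Ag+Costim, with library 5 inside the Ag range and libraries 4 and 5 lowest, as for Tnfrsf4, Tnfrsf9 and Cd70.

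Of 13 genes of CD28 signalling, 4 were higher and 8 lower in Ag than in Naive, and with Ag+Costim set against Ag, 7 were higher and 2 lower (median -0.96 and 0.36). The PI3K subunits Pik3r1 and Pik3cd were 3.68-fold and 3.49-fold lower in Ag than in Naive. In Ag+Costim, Pik3cd was 2.23-fold and Pdpk1 1.98-fold higher than in Ag. Cd28 itself went against the median of this list in both comparisons.

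**Figure D5:**
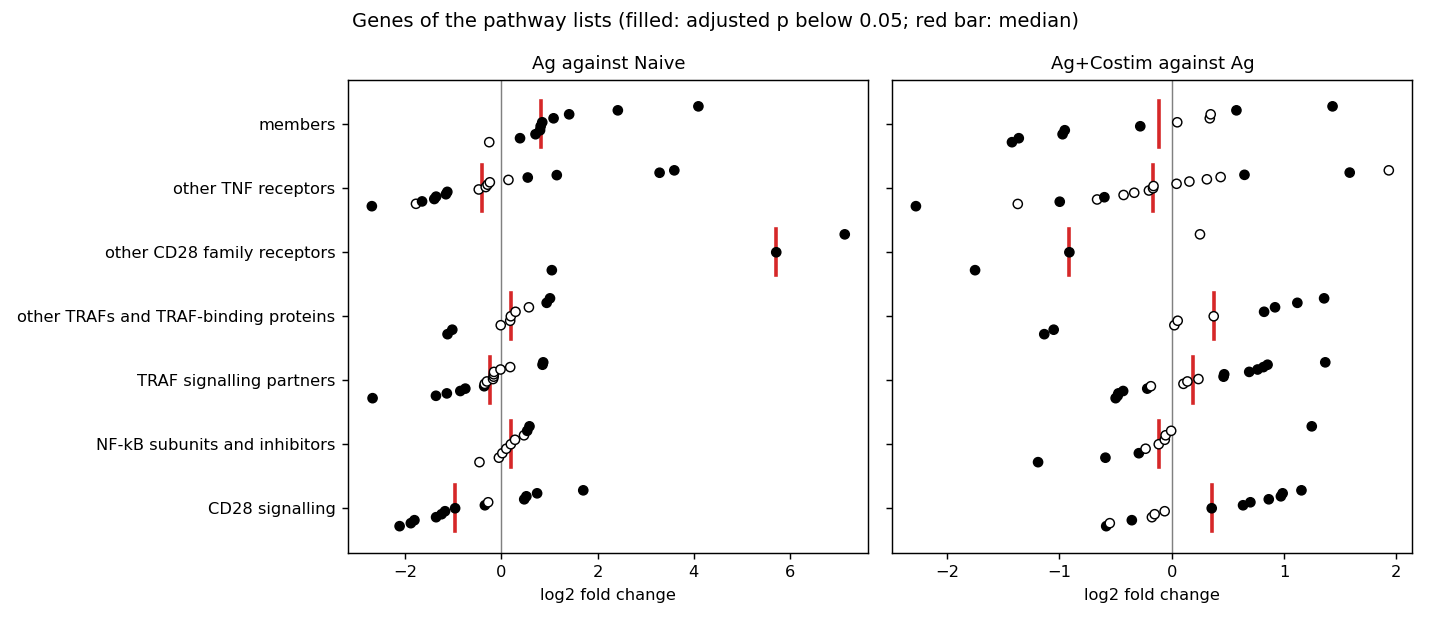
Log2 fold change (horizontal axes) of the 10 genes and of genes of 6 pathway lists (rows) in Ag against Naive and in Ag+Costim against Ag. Each point is a gene with counts in both groups, filled at an adjusted p below 0.05, and the red bar is the median of the points shown, which can differ from the medians in the text because genes with no counts in a group are left out. The 10 genes lie mostly above 0 on the left and on both sides of 0 on the right, whereas CD28 signalling lies mostly below 0 on the left and above it on the right.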

How the data were processed

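The authors aligned single 100-base reads of SMART-Seq v4 and Nextera XT libraries to mm10 with HISAT2 2.1.0 and quantified them with StringTie 2.1.0, per the labels. The deposited counts per gene and transcript derive from coverage, so a count is not exactly 1 read, and are not normalized. Strand was not stated. The deposited FPKM values, by the authors, scale for length and library size, and were summed per gene name. The deposited Psi fraction (Whippet) has 1 value per group, and its score columns (difference, probability) were not used. The sequencing core's deposited sheet gives total reads per library as counts (24714617 to 46800347) and the percent aligned (72.3% to 76.5%), whose definition is not given.

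Identifiers of the 55536 annotated genes match GENCODE vM21, and 26345 unannotated entries (0.0508% to 0.121% of counts) were left out. Counts were fitted with edgeR 4.0.16 (TMM, filterByExpr, robust quasi-likelihood, two-sided) on all 12 libraries, 1 term per group, with Benjamini-Hochberg adjustment. CPM use TMM library sizes. Single values per library were compared with exact permutation tests, whose p was also adjusted over 10554 genes for transcript shares. Fits were tested on simulated data. Alternatives were RLE and upper-quartile scaling, DESeq2, no filter, 2 groups alone, a replicate block, a transcript length offset, omission of each library, and limma on log2(FPKM + 1) or log2(FPKM + 0.1). For shares, counts were also divided by transcript length, which within a gene is proportional to FPKM.

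All 10 members are named. From each pathway list, up to 3 called genes per comparison with non-overlapping libraries, a mean log2 CPM above 1 and the largest fold changes were eligible, and other genes are said to be chosen after their values were seen or are given as values of the list. Some genes that this rule names are not reported here. The members and lists were chosen with earlier results of these data known. Floors of 3 counts cover counting error only. Promoters come from RefSeq (GRCm38.p6).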

Additional observations from a re-analysis of the deposited data

Results flagged for a closer look

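In 48 groups of 5 libraries (10 gene levels, 10 leading transcript shares and 4 ratios in Ag and in Ag+Costim), Dixon's criterion at 0.71 marked 4 libraries, and chance marks about 1 in 20 groups. Icos in Ag 4 had 130.4 CPM, against 165 to 173 CPM in the other 4 Ag libraries. Cd28-201 in Ag 4 held 83.0% of the Cd28 counts, against 88.2% to 89.0% in the others. Ag 4 also had the lowest total count and the highest sum of erythroid markers (6373 CPM, against 625 to 2637 CPM in the other Ag libraries), whose part in these values was not tested. Traf3-201 held 37.4% of the Traf3 counts in Ag+Costim 3, against 93.9% to 96.8% in the others, where StringTie gave Traf3-202 no counts, while it gave Traf3-202 544 counts in that library. Ag 4 and Ag 5 were alike in this, with 24.6% and 24.0% for Traf3-201 and 410 and 786 counts for Traf3-202. Tnfrsf1b-201 held 99.97% in Ag 5 and 100% in the other Ag libraries, a difference of 1 count.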

How the results depend on the processing

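Under 23 alternatives per comparison, 7 of the 10 members kept direction and call in Ag against Naive, 5 in Ag+Costim against Ag (Tnfrsf18, Tnfrsf1b, Cd27, Icos and Traf1) and 4 in Ag+Costim against Naive. Replicate numbers are shared by the groups, and the labels do not say whether they pair the libraries. Same-numbered Ag and Ag+Costim libraries correlated at 0.016 to 0.095 in their deviations from the group means, 0 of 5 above 0.1. Libraries with different numbers correlated at -0.082 to 0.075, and 3 of 5 Ag libraries correlated best with their own number. Correlations this weak cannot decide whether the libraries were paired. With the replicate block, members called higher and lower in Ag+Costim against Ag stayed at 2 and 5, and Tnfrsf4 was -0.050 (also reversed). Against Naive, those higher in Ag+Costim went from 6 to 5, Icos losing its call.

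Members called higher in Ag+Costim against Ag fell from 2 to 1, losing Traf3, with upper-quartile scaling, the length offset, that offset with the replicate block and unfiltered log2(FPKM + 1). Against Naive, members called higher in Ag+Costim fell from 6 to 3 with log2(FPKM + 1) or log2(FPKM + 0.1) and to 2 without a filter, and members called lower fell from 2 to 1, losing Tnfrsf18, with the length offset and replicate block. Leaving out single libraries, those called higher ranged from 3 to 6, with 3 without Naive 1. All genes called in Ag against Naive ranged from 2906 to 4944 higher and from 2807 to 4625 lower, lowest without Naive 2. Upper-quartile scaling moved the median of all genes to -0.24 in Ag+Costim against Ag and the calls to 4056 higher and 6338 lower, from 5006 and 4979. The causes were not tested.

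Signs reversed, with no call on either side, for Traf3 in Ag against Naive with the length offset (0.12) and with the block (0.16). They reversed for Tnfrsf4 in Ag+Costim against Ag with log2(FPKM + 1) (-0.048, filtered or not), log2(FPKM + 0.1) (-0.14) and over single omissions from -0.14 without Ag+Costim 2 to 0.64 without Ag+Costim 4. For Traf2 in Ag+Costim against Ag the values were -0.14 with upper-quartile scaling, -0.17 with the length offset, -0.17 with the block added and, over single omissions, from -0.0068 without Ag 4 to 0.079 without Ag+Costim 5. For Traf1 in Ag+Costim against Naive they were -0.036 with upper-quartile scaling and -0.11 with each FPKM analysis. The Icos-202 share difference ranged from -0.26 to 0.15 percentage points over single omissions. Naive has only 2 libraries, and levels near 1 CPM, as for Tnfrsf4, rest on few counts.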
